A study of Homo sapiens with 6 samples.

Results

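The DNA replication licensing genes are described here in polyploid giant cancer cells (PGCCs), the parental cells they came from and the daughter cells that grew out of them. The 10 genes are MCM2, MCM3, MCM4, MCM5, MCM6, MCM7, MCM10, CDC6, CDT1 and GMNN. They were taken by symbol from the 59008 gene symbols of the deposited table, and all 10 were among the 14988 genes with a mean of at least 1 TPM. TPM, a measure of mRNA abundance, is corrected for transcript length and scaled within each library, here to nearly equal totals given below. Levels of genes of different length can thus be set side by side. The length correction by itself does not address the base composition of a transcript, described below.

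Licensing is the step that prepares replication origins for S phase. In G1 phase the origin recognition complex, CDC6 and CDT1 load the ring of MCM2, MCM3, MCM4, MCM5, MCM6 and MCM7 onto DNA, where it waits as an inactive helicase. MCM10 acts later, when the loaded helicase is switched on. Geminin, the product of GMNN, binds CDT1 from S phase until mitosis and prevents a second round of loading, and CDT1 is also destroyed in S phase. Cells that copy their DNA again without dividing have to license their origins again, and E2F transcription factors are known to drive many of these genes as cells approach S phase.

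Hey and SKOV3 are established human ovarian cancer cell lines, grown in MEM Eagle and RPMI-1640 medium, respectively. For each line, untreated parental cells, PGCCs and daughter cells were sequenced as 1 library each, 6 libraries in all. PGCCs had received 500 nM paclitaxel, which freezes microtubules and arrests cells in mitosis, for 16 hours. Both PGCC libraries are labelled as 3 days of recovery in the treatment field, but day 7 stands in the title of the SKOV3 one. Daughter cells had received the same drug and 30 days of recovery, and each daughter library is titled as clone 1, so it may stand for a single clone. No state of a line has a replicate. Values within a line therefore carry no error and no test, and a gene was called at a difference of at least 1 in log2(TPM + 1), which is 2-fold on that scale.

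The columns summed to between 911825 and 920497 TPM, and between 19920 and 25370 genes were above 0. Mitochondrial transcripts took 2.64% to 14.8% of a library. In Hey they took 2.64% of the parental, 12.3% of the PGCC and 7.60% of the daughter library, and 19920, 25370 and 20154 genes were above 0. The table holds TPM and no counts, so the number of reads behind a value, and its counting error, cannot be given. ERBB2, which is amplified in SKOV3, was at 1127 to 1778 TPM in the SKOV3 libraries and at 8.20 to 14.1 TPM in the Hey libraries. Of the epithelial markers, KRT7, KRT8 and KRT18 were high in both lines, while CDH1 was listed at 0 in Hey parental cells and PGCCs. KRT19 and EPCAM were at most 3.60 and 1.43 TPM in Hey, and at least 80.2 and 8.15 TPM in SKOV3. Of the ovarian carcinoma markers, PAX8 was at 54.7 to 136 TPM, while WT1 and MUC16 were at most 4.10 and 1.59 TPM. MSLN was at 21.5, 23.3 and 0.386 TPM in Hey parental, PGCC and daughter cells, and at 33.1, 46.1 and 1.85 TPM in SKOV3. The summed level of 7 fibroblast genes was at most 28.2 TPM, and that of 5 leukocyte genes at most 1.09 TPM. Of 3 endothelial genes, CDH5 was at 33.2 to 48.5 TPM in Hey, while PECAM1 was at most 0.272 TPM and VWF at most 0.0988 TPM there.

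In Hey cells every licensing gene was lower in PGCCs than in parental cells. All 10 were called lower, against 5.22% of all genes tested, and 0 were called higher, against 7.67%. Their median difference was -1.98 on the log2 scale, where the median of all genes was 0. The TPM of parental cells was between 2.53 times (GMNN) and 6.51 times (CDT1) that of PGCCs.

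The helicase subunits were lower by similar amounts. In Hey, MCM2 was at 35.1 TPM in the parental library, 8.89 in PGCCs and 53.1 in the daughter library. MCM3 was at 91.4, 18.8 and 73.1 TPM in the same order, and MCM4 at 79.9, 19.7 and 129.5 TPM. In each of them the PGCC library was the lowest of the 3. The PGCC library was also the lowest for the remaining subunits. MCM5 was at 75.2 TPM in parental cells, 14.7 in PGCCs and 68.8 in their daughters. MCM6 was at 51.7, 14.7 and 46.2 TPM, and MCM7 at 87.7, 20.1 and 129.5 TPM. The differences between PGCCs and parental cells ran from -2.28 for MCM5 to -1.75 for MCM6, and the median TPM of the 6 subunits was 77.6 before treatment, 16.7 in PGCCs and 71.0 in daughter cells.

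The loading factors, the helicase activator and the inhibitor followed the same pattern. CDC6, the ATPase that joins the origin recognition complex, was at 55.8 TPM in Hey parental cells, 18.1 in PGCCs and 84.5 in their daughters, a PGCC difference of -1.57. CDT1, which brings the helicase to the origin, was at 9.36, 1.44 and 6.24 TPM, a difference of -2.09. MCM10 was at 16.1, 3.26 and 24.2 TPM, a difference of -2.00. GMNN, the inhibitor, showed the smallest difference of the 10, at -1.30, with 62.6, 24.8 and 60.8 TPM.

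Genes that mark dividing cells moved with these values. The summed level of MKI67, TOP2A, CCNB1, CDK1 and BIRC5 came to 718 TPM before treatment, 158 in Hey PGCCs and 916 in the daughter library, and each of the 5 was called lower in PGCCs. CDKN1A, which encodes the cell cycle inhibitor p21, was at 148, 480 and 89.4 TPM. Of the other genes listed for arrested cells, CCNG2 was at 27.7, 42.2 and 24.8 TPM and CDKN2B was listed at 0 throughout. The share of mitochondrial transcripts and the number of genes above 0, given above, were also highest in the PGCC library of Hey. Their part in the result was not tested. In bulk RNA, fewer cells of a cycling type and less mRNA per cell cannot be told apart.

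**Figure D1:**
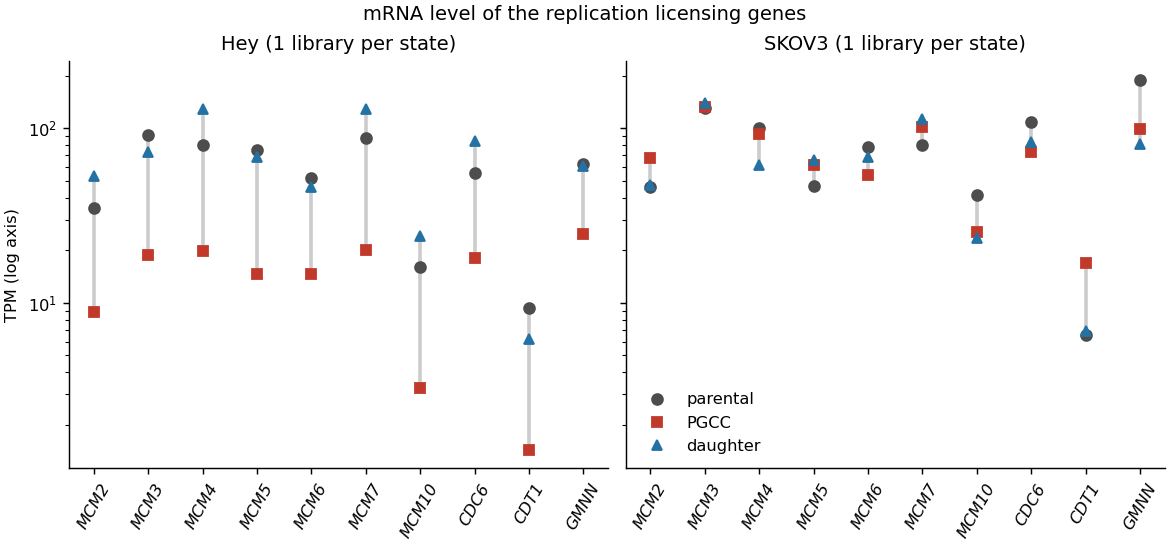
TPM (log axis) of the 10 licensing genes in the 3 states of Hey (left) and SKOV3 (right), 1 library per point, with a grey line from the lowest to the highest. In Hey the PGCC library is the lowest for all 10 genes, while in SKOV3 the PGCC library lies above both others for MCM2 (67.3 TPM) and CDT1 (16.8 TPM).

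In SKOV3 cells the licensing genes showed no common direction in the values as deposited. In PGCCs against parental cells, 0 of 10 were called lower, against 4.96% of all genes, and 1 was called higher, against 9.94%. The median difference was -0.035, beside 0.017 over all genes, with 5 members above 0 and 5 below. With the GC and length trend described below subtracted, every member but CDT1 was below 0.

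MCM2 was at 46.4 TPM in SKOV3 parental cells, 67.3 in PGCCs and 47.2 in their daughters. MCM3 was at 130.1, 132.8 and 140.5 TPM, and MCM4 at 100.1, 93.4 and 61.4 TPM. The PGCC library was thus the highest of the 3 for MCM2 and lay between the others for MCM3 and MCM4. MCM5 was at 47.0, 61.5 and 66.1 TPM. MCM6 was at 78.4, 54.3 and 68.3 TPM, and MCM7 at 79.8, 101.3 and 113.2 TPM. The differences of the 6 subunits between PGCCs and parental cells ran from -0.52 (MCM6) to 0.53 (MCM2), and none reached 2-fold.

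CDT1 was the member called higher, at 6.57 TPM in SKOV3 parental cells, 16.8 in PGCCs and 6.88 in their daughters, a PGCC difference of 1.24. CDC6 was at 109.3, 73.3 and 84.0 TPM, a difference of -0.57. MCM10 was at 41.5, 25.6 and 23.6 TPM, a difference of -0.68. GMNN came nearest to a call on the low side, at 190.3, 99.5 and 81.3 TPM, a difference of -0.93. Among the genes of dividing cells, TOP2A (-1.77) and CDK1 (-1.87) were called lower in SKOV3 PGCCs, and MKI67 was at 122 TPM in parental cells and 104 in PGCCs. The summed level of the 5 was 1746, 830 and 940 TPM. CDKN1A was at 4.76, 6.84 and 3.73 TPM, and CCNG2 at 26.2, 15.6 and 36.03 TPM, the opposite order. The summed level of the arrested-cell list was 31.0, 22.4 and 39.8 TPM in SKOV3. The part of these genes was not tested.

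The SKOV3 differences followed the base composition of the transcripts. Over 13468 genes, the difference between SKOV3 PGCCs and parental cells had a Spearman correlation of 0.72 with the GC content of the canonical transcript, while the same correlation in Hey was -0.044. Across the 10 members, which share the same pair of libraries, it was 0.93 in SKOV3 and -0.64 in Hey. CDT1, with 64.3% GC, was the most GC-rich member and the highest difference in SKOV3, and GMNN, with 43.6% GC, was the lowest difference. MCM6 and MCM10, with 43.2% and 43.7% GC, were at -0.52 and -0.68 there. With a smooth trend over GC content and length subtracted, the CDT1 difference was 0.26 and no member was called in SKOV3. The median of the 10 was then -0.16, with GMNN at -0.63, MCM10 at -0.47 and CDC6 at -0.43. CDT1 was the only member above 0, and the others ran from -0.63 (GMNN) to -0.066 (MCM2). In Hey all 10 stayed called lower, between -2.20 and -1.42. Whether the trend arose in the libraries or in the cells was not tested.

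**Figure D2:**
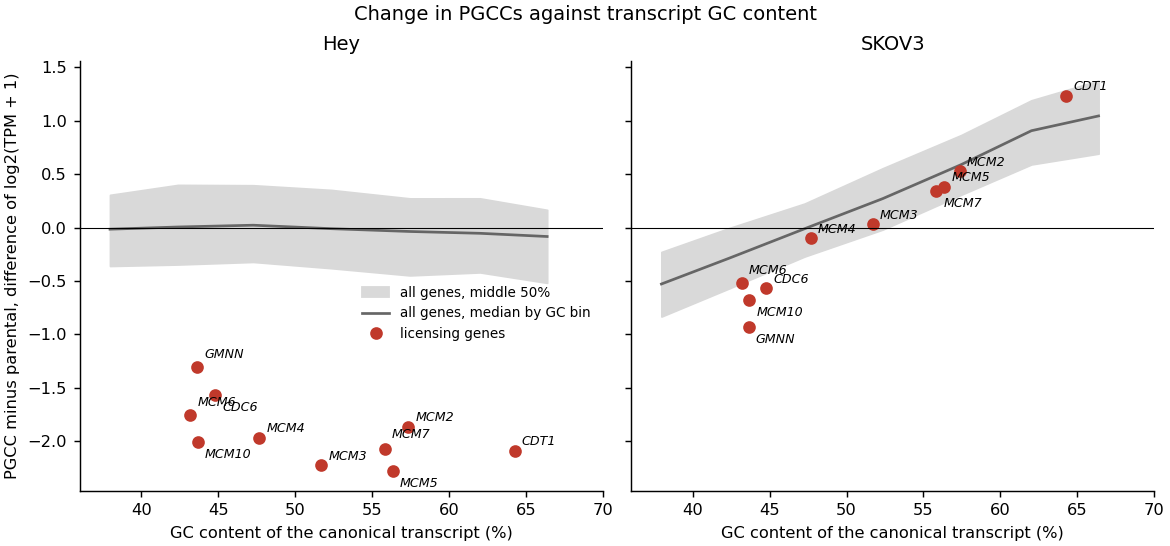
Difference in log2(TPM + 1) between PGCCs and parental cells against the GC content of the canonical transcript, in percent, for the 10 licensing genes (points) and for all genes (line, median by GC bin, with the middle 50% shaded). In SKOV3 the members rise with GC content as the line of all genes does, from GMNN at -0.93, below the shaded band, to CDT1 at 1.24, above the line, while in Hey all 10 lie below the shaded band.

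Daughter cells were set against parental cells to see what remained after recovery. In Hey, 0 of 10 licensing genes were called lower, against 3.73% of all genes, and 0 were called higher, against 6.31%. The median difference was 0.26, beside 0.050 over all genes. MCM4 (0.69), CDC6 (0.59), MCM2 (0.59), MCM10 (0.56) and MCM7 (0.56) had the highest values and CDT1 (-0.52) the lowest. In SKOV3, GMNN was called lower, at -1.22, against 6.34% of all genes, and 0 members were called higher, against 15.1%. The median was -0.086, beside 0.15 over all genes. MCM10 (-0.79) and MCM4 (-0.70) were the next lowest and MCM7 (0.50) the highest. The GMNN difference was -1.13 with the GC and length trend subtracted.

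Daughter cells were also set against PGCCs. In Hey all 10 licensing genes were called higher in daughter cells, against 9.95% of all genes, and 0 were called lower, against 8.13%. The differences ran from 1.26 for GMNN to 2.65 for MCM4, with a median of 2.16. In SKOV3, 0 members were called higher, against 14.6%, and CDT1 was called lower at -1.18, against 9.25%. The median there was -0.015. These values share the PGCC and daughter libraries with the comparisons above and are no independent repeat of them. With the trend subtracted, no member was called in SKOV3, and all 10 stayed called in Hey, from 1.30 to 2.53.

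**Figure D3:**
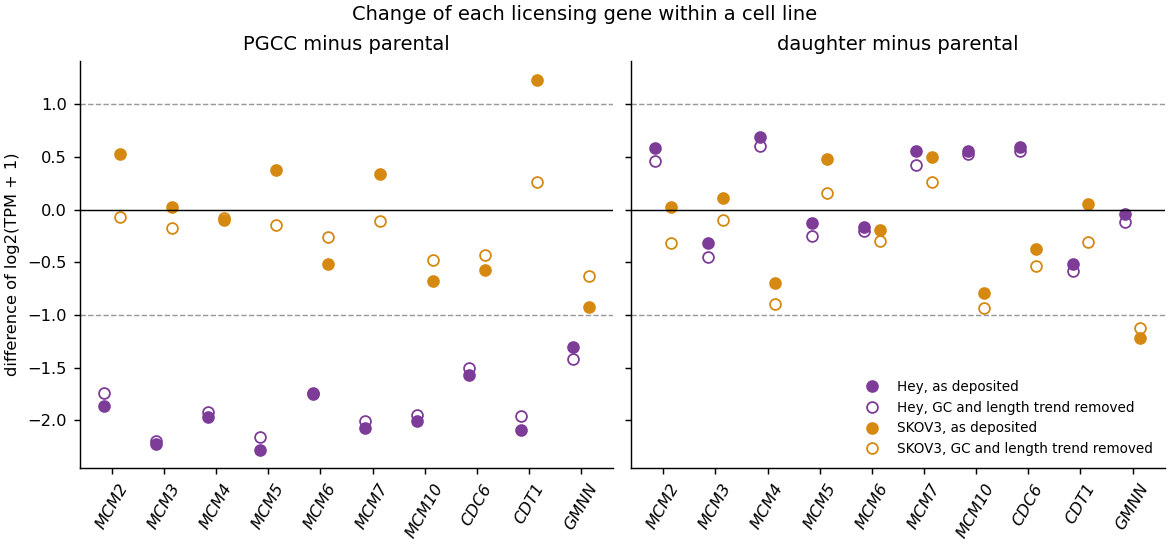
Difference in log2(TPM + 1) of each licensing gene for PGCCs minus parental cells (left) and daughter minus parental cells (right), in Hey (purple) and SKOV3 (orange), as deposited (filled) and with the GC and length trend removed (open), with dashed lines at 2-fold. On the left all Hey values lie between -2.28 and -1.30, and CDT1 in SKOV3 moves from 1.24 to 0.26 when the trend is removed.

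The balance between CDT1 and its inhibitor was read from their ratio. In Hey the TPM of CDT1 divided by that of GMNN was 0.149 before treatment, 0.0580 in PGCCs and 0.103 in daughter cells. In SKOV3 these ratios were 0.0345, 0.169 and 0.0845. As deposited, the PGCC library thus held the lowest ratio of the Hey libraries, where CDT1 was at 1.44 TPM, and the highest of the SKOV3 libraries. On the log2(TPM + 1) scale, the change of CDT1 less that of GMNN was -0.78 in Hey and 2.16 in SKOV3, and subtracting the GC and length trend left -0.54 in Hey and 0.89 in SKOV3. The Hey value was -1.29 with a pseudocount of 0.1 and -1.09 with quantile normalization. For daughter cells less PGCCs in SKOV3, the change of CDT1 less that of GMNN was -0.89 as deposited. It was -0.062 with the trend subtracted. With 1 library per state, the difference between the lines was not tested.

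The levels of the helicase subunits relative to each other spanned a similar range in each library. The highest of the 6 helicase subunits was between 2.26 and 2.98 times the lowest in each library, and the ratio was smallest in Hey PGCCs. CDT1 was the lowest of the 10 in all 6 libraries and MCM10 the second lowest. The highest was MCM3 in Hey parental cells and in SKOV3 PGCCs and daughter cells, MCM7 in Hey daughter cells, and GMNN in Hey PGCCs and SKOV3 parental cells. No spread between replicates was at hand to separate neighbours in this order.

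**Figure D4:**
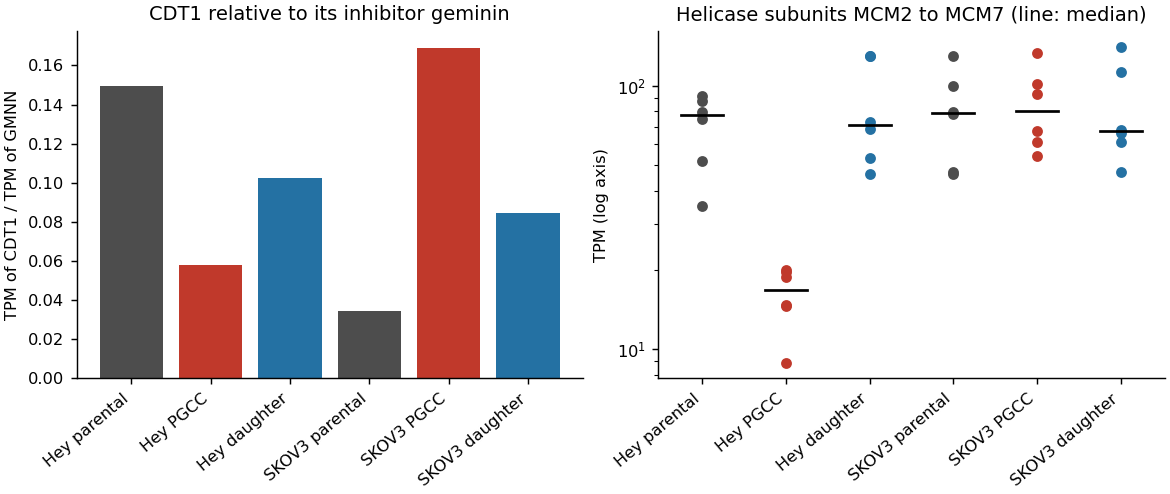
TPM of CDT1 divided by TPM of GMNN in each of the 6 libraries (left, bars from 0), and TPM of MCM2 to MCM7 in each library (right, log axis, 1 point per gene, black line at the median). The ratio runs from 0.0345 in SKOV3 parental cells to 0.169 in SKOV3 PGCCs, and the subunits keep within a factor of 2.98 of each other while their median drops to 16.7 TPM in Hey PGCCs.

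With both lines in 1 fit, the spread of a gene comes from the disagreement between Hey and SKOV3. The limma fit draws this spread toward that of other genes of similar level, so its SE and p do not rest on that gene alone. By limma, with state and cell line as terms, no licensing gene reached an adjusted p under 0.05 for PGCCs against parental cells, where 0.0133% of all genes were called lower and 0.00667% higher. At an unadjusted p under 0.05 there were 2 members, where 1.57% of all genes were lower and 1.16% higher. They were MCM6, at -1.14 ± 0.444 (SE), unadjusted p = 0.0361, and GMNN, at -1.12 ± 0.459 (SE), unadjusted p = 0.0437, both with an adjusted p of 1 in limma and both lower in PGCCs of both lines. Neither was under 0.05 in limma without the intensity trend (unadjusted p = 0.0537 and 0.0651) or without the cell line term (unadjusted p = 0.145 and 0.216), and GMNN was not without the filter on low TPM (unadjusted p = 0.0602). The median estimate of the 10 was -1.05. Without the Hey PGCC library it was 0.075 and 5 of 10 members turned sign, and without the SKOV3 PGCC library it was -2.05. For daughter against parental cells, and for daughter cells against PGCCs, limma called 0 members at either the adjusted or the unadjusted p. At the unadjusted p, 0.961% of all genes were lower and 2.43% higher in the first of these comparisons, and 1.98% lower and 3.08% higher in the other. The smallest adjusted p of a member was 0.908, and the median estimates were -0.053 and 1.01.

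The promoters of the members were searched for sequence words that they might share. The RefSeq table on GRCh38.p14 gives windows from 250 bases before to 50 after a start for 8 of the 10, all but MCM4 and MCM5, in 11 windows. An E2F word, here TTTCCCGC, TTTCGCGC, TTTGCCGC or TTTGGCGC on either strand, was present for 7 of the 8 genes, in 7 of 11 windows, and in 3.31% of all 35116 windows. Of the 10493 tested genes with a window, 696 had the word. Among the other replication pathway genes listed further below, 61 had a window and 21 of these (34.4%) had the word. CCAAT was found for 6 of the 8 members, for 4564 of the 10493 tested genes and in 34.6% of all windows. GGGCGG was found for 6 of the 8 members, for 8027 of the 10493 tested genes and in 44.95% of all windows, so it was about as frequent among the members as among tested genes. TTTGAA was found for 0 of the 8 members, for 1451 of the 10493 tested genes and in 15.2% of all windows. Of the 61 pathway genes, 32 had CCAAT, 50 had GGGCGG and 7 had TTTGAA. A match is a string of letters, not a bound site. The stretches around the word nearest to a start are printed in the direction of the gene for 2 helicase subunits, both loading factors and the inhibitor, as examples of the roles in licensing, with the matched word in capitals (for MCM2 and MCM6, overlapping words on both strands).
MCM2, chr3:127598383-127598430, plus strand: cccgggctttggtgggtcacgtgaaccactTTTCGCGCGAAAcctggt
MCM6, chr2:135876492-135876559, minus strand: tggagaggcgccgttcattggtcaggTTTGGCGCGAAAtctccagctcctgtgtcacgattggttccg
CDC6, chr17:40287856-40287898, plus strand: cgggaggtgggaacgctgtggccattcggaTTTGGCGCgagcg
CDT1, chr16:88803724-88803791, plus strand: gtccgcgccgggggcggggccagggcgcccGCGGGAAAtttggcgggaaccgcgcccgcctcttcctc
GMNN, chr6:24775303-24775370, plus strand: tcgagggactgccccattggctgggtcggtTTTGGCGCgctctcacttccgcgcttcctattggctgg

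The matched genes include both ends of the SKOV3 range, CDT1 at 1.24 and GMNN at -0.93. Among 689 other tested genes with an E2F word, 12.6% were called lower in Hey PGCCs, beside 4.77% of 9796 genes without it, and 3.19% were called higher, beside 5.39%. In SKOV3 PGCCs 7.11% were called lower, beside 3.92%, and 7.55% higher, beside 9.53%. These shares are given as a description and were not tested.

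In GENCODE release 44 on GRCh38, MCM2 is at chr3:127598410-127622436, MCM3 at chr6:52264014-52284881, MCM5 at chr22:35400134-35425431, MCM6 at chr2:135839626-135876443 and MCM7 at chr7:100092233-100101940, while MCM4 is on chromosome 8. MCM10 is at chr10:13161558-13211110, CDC6 at chr17:40287879-40304657, CDT1 at chr16:88803789-88809258 and GMNN at chr6:24774931-24786099. MCM7 holds the microRNA genes MIR25, MIR93 and MIR106B on its own strand and overlaps AP4M1 on the other strand, and MCM2 overlaps a long noncoding RNA gene on the other strand. Whether the libraries kept strand is not given in the sources used here, so reads from such overlaps may be shared.

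The other genes of the replication pathway were taken from a list of 72, of which 69 passed the filter on mean TPM. In Hey PGCCs 36 of the 69 were called lower than in parental cells, against 5.22% of all genes. Called higher were 0, against 7.67%, and the median was -1.02. In SKOV3 PGCCs 11 were called lower, against 4.96%, and 2 higher, against 9.94%, with a median of -0.48. With the GC and length trend subtracted, 5 were called lower and 0 higher, and no share of all genes was computed on those values. As deposited, 7 genes were called lower in both lines: CCNE2, CCNA2, FBXO5, MTBP, POLA2, PRIM1 and CLSPN. With the trend subtracted there were 4, namely CCNA2, POLA2, CLSPN and CDC45, which was not among the 7. CCNE2, FBXO5, MTBP and PRIM1 were then no longer called in both lines. The share of all genes called lower in both lines was not computed, so these joint counts have no such share beside them. CCNA2 and CCNE2 encode cyclins, FBXO5 encodes the inhibitor EMI1 of the anaphase-promoting complex, and MTBP works with the firing factor TICRR. POLA2 and PRIM1 are subunits of the polymerase that starts new strands, and CLSPN encodes the checkpoint mediator claspin.

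By role, the calls in Hey PGCCs, where 5.22% of all genes were called lower and 7.67% higher, were as follows. Of 9 genes for origin recognition and loading, ORC1, the largest subunit of the origin recognition complex, was called lower, at 12.9 TPM in parental cells and 2.80 in PGCCs (-1.88). The largest value of that group was LRWD1, which binds the complex, at 0.68 in Hey and 1.69 in SKOV3. Of 14 genes of licensing control 7 were called lower, with CCNA2 the lowest at -2.58, and CCNE1 the highest at 0.54. Of 13 genes of origin firing 9 were called lower, from CDC45, which completes the active helicase, at -1.85 to the uncalled RECQL4 at -0.81.

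Of 29 genes at the replication fork 17 were called lower in Hey, with PRIM1 the lowest at -2.09 and POLD4 the highest at 0.28. In SKOV3, 7 of the 29 were called lower, against 4.96% of all genes, with POLA2 at -1.56. Called higher was 1, against 9.94%: POLD2, a subunit of DNA polymerase delta, at 1.22. With the GC and length trend subtracted, only POLA2 (-1.91) and CLSPN (-1.01) of the fork genes were called lower in SKOV3. POLD2 was then no longer called there. In Hey PGCCs POLD2 was lower (-1.31), so as deposited it had the same signs as CDT1. Of the 4 relatives of the helicase subunits, MCM8 (-1.09) and MCMBP (-1.07), a binding partner of the MCM proteins, were called lower in Hey and 0 in SKOV3. In daughter cells of Hey against PGCCs, 41 of 69 pathway genes were called higher, against 9.95% of all genes, and 0 lower, against 8.13%. In SKOV3, 4 were called higher, against 14.6%, and 3 lower, against 9.25%.

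**Figure D5:**
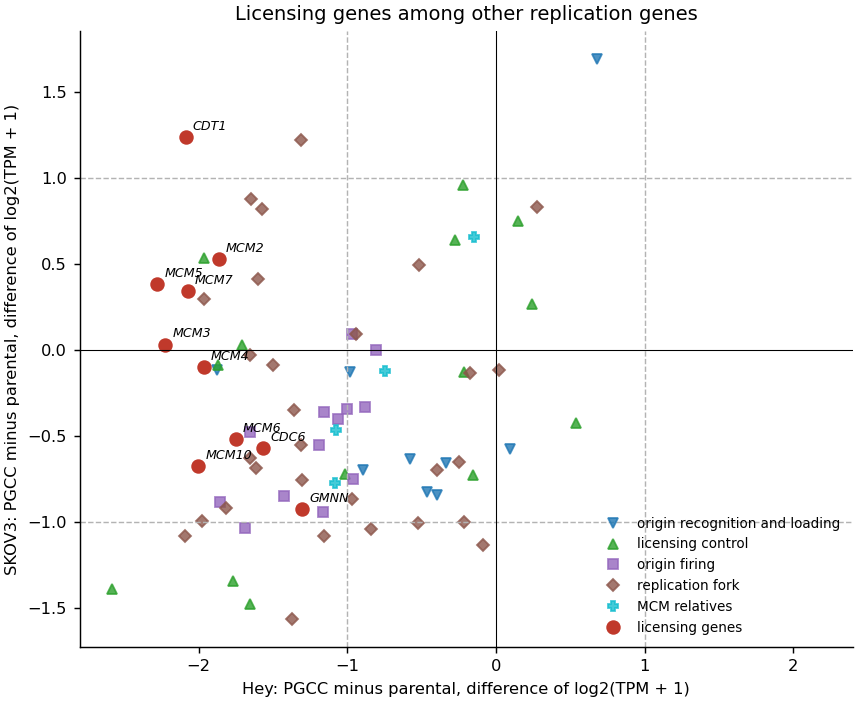
Difference in log2(TPM + 1) between PGCCs and parental cells in Hey (horizontal axis) and SKOV3 (vertical axis) for the 10 licensing genes (red circles) and 69 other replication genes by role, with dashed lines at 2-fold. The licensing genes lie to the left of -1 in Hey and spread from -0.93 to 1.24 in SKOV3.

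The members had similar profiles over the 6 libraries. Pearson's r of log2(TPM + 1) between a member and the mean of the other 9 ran from 0.83 for GMNN to 0.97 for MCM2. Over the 45 pairs r ran from 0.59 (GMNN with MCM5) to 0.99 (CDC6 with MCM10), with a median of 0.88. The genes outside the group with the profile most like the members' mean were CIT (0.997), SKP2 (0.996), UHRF1 (0.995), SAP30L (0.995) and LMNB1 (0.994). CIT encodes citron kinase of cytokinesis, SKP2 a subunit of the ubiquitin ligase that targets p27 and CDT1, UHRF1 a factor of DNA methylation upkeep, and LMNB1 lamin B1. LMNB1 was at 99.6 TPM in Hey parental cells, 12.0 in PGCCs and 154 in their daughters, and at 206, 152 and 150 TPM in SKOV3. These correlations rest on 6 points, and the Hey PGCC library is the lowest of the 6 for each member.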

How the data were processed

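RNA from 6 libraries was analysed, 1 for each state of Hey and SKOV3. Per the labels, the authors used fastp, Salmon 0.14.1 and hg38, and deposited TPM values, 1 per gene symbol and library. How transcripts were joined into genes, the annotation and any bias correction are not given in the sources used here, and TPM values hold no counts, so depth per gene cannot be given. Differences of log2(TPM + 1), a pseudocount of 1, were computed within each line and called at 2-fold. They were set beside the same over all genes whose mean TPM was 1 or more. Both lines were fitted with limma 3.58.1 (R 4.3.3) on state and cell line, with an intensity trend, 2 residual degrees of freedom and Benjamini-Hochberg adjustment over 14988 genes, two-sided. A trend over transcript GC content and length (GENCODE release 44, 13468 genes) was removed in 2 lowess passes, each with a fraction of 0.3 (statsmodels 0.14.6, Python 3.11.15). Steps were tested on simulated data. Named were the members, pathway genes called the same way in both lines, the ends of each pathway group, the 5 genes most like the members' mean profile (mean TPM of at least 5) and markers. Genes singled out beyond these, such as POLD2 and MCMBP, were chosen after their values were seen. The members, lists and alternatives were chosen with earlier results of these data known. The alternatives were a pseudocount of 0.1, median-ratio and quantile scaling, removal of mitochondrial genes, calls at 1.5-fold and at 3-fold, and for limma other filters, no trend, no line term and each library left out.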

Additional observations from a re-analysis of the deposited data

Results flagged for a closer look

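CDT1 stood out because its differences had opposite signs in the 2 lines. For PGCCs less parental cells they were -2.09 in Hey and 1.24 in SKOV3, and between daughter cells and PGCCs it was 1.57 in Hey and -1.18 in SKOV3, each past 2-fold. Both comparisons use the same PGCC libraries. The difference between the lines was not tested, because each state of a line has 1 library. With the GC and length trend subtracted, the SKOV3 difference between PGCCs and parental cells was 0.26.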

How the results depend on the processing

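The Hey calls for PGCCs did not move: all 10 members stayed lower than in parental cells and below daughter cells under another pseudocount, 2 other scalings, mitochondrial genes left out and the GC and length trend subtracted. The members' median ran from -2.07 to -1.86 against parental cells and from 1.94 to 2.22 for daughter cells against PGCCs. At 3-fold, 8 of 10 were lower than in parental cells and 8 of 10 below daughter cells. Calls in SKOV3 depended on the settings. For PGCCs against parental cells, 2 members were lower at 1.5-fold, and 0 were higher at 3-fold or with the trend subtracted. With the trend subtracted, 4 members under 2-fold turned sign there, MCM2 to -0.066, MCM3 to -0.17, MCM5 to -0.14 and MCM7 to -0.11. For daughter against parental cells, 3 were lower at 1.5-fold and 0 at 3-fold, and for daughter cells against PGCCs 2 were lower at 1.5-fold, 0 at 3-fold and 0 with the trend subtracted. In Hey daughter cells, 3 were higher than in parental cells at 1.5-fold. Within a line, the shares of all genes were computed only at 2-fold and on the values as deposited. Counts at 1.5-fold, at 3-fold, under another scaling or with the trend subtracted therefore have no such share beside them. Leaving out mitochondrial genes moved the median of all genes to 0.12 in Hey PGCCs against parental cells.

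In limma 0 members passed an adjusted p of 0.05 under every alternative, but the direction of many of its estimates rested on single libraries. For PGCCs against parental cells, MCM3, MCM6, MCM10, CDC6 and GMNN kept their sign whichever library was left out. MCM6, MCM7, MCM10 and CDC6 did so for daughter cells against PGCCs. The CDC6 estimate for daughter against parental cells was -0.061 with median-ratio scaling. For PGCCs against parental cells, leaving out each library in turn gave MCM2 from -2.01 to 0.67, MCM4 from -2.31 to 0.25, MCM5 from -2.13 to 0.23, MCM7 from -2.09 to 0.36 and CDT1 from -1.94 to 1.09. For daughter against parental cells, leaving out each library in turn gave MCM2 from -0.57 to 1.18, MCM3 from -0.77 to 0.57, MCM4 from -1.16 to 1.16, MCM5 from -0.64 to 1.00, MCM6 from -0.50 to 0.15, MCM7 from -0.10 to 1.16, MCM10 from -1.12 to 0.89, CDC6 from -0.63 to 0.84, CDT1 from -1.20 to 0.74 and GMNN from -1.31 to 0.052. For daughter cells against PGCCs, leaving out each library in turn gave MCM2 from -0.36 to 2.31, MCM3 from -0.026 to 2.01, MCM4 from -0.25 to 2.31, MCM5 from -0.0498 to 2.31, CDT1 from -1.32 to 1.71 and GMNN from -0.19 to 1.17. A fit without 1 library assumes that the lone library of a state varies like the others. For PGCCs against parental cells the turn came without the Hey PGCC library, and for CDT1 also without the Hey parental library. For daughter cells against PGCCs it came without the Hey PGCC or the Hey daughter library, and for daughter against parental cells without any 1 of the 4 libraries compared. The limma fit with cell line as a term is paired by line, and without that term 0 members had an unadjusted p under 0.05 for PGCCs against parental cells. The labels give no replicate numbers that could pair libraries further. TPM values hold no counts, so no counting error bounds any value.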
